A study of Secale cereale x Triticum turgidum subsp. durum with 39 samples.

Results

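A set of 188 probe sets, out of 61290 on a wheat expression array, was bright in triticale anthers at the uninucleate microspore stage and no longer stood out there at the tricellular pollen stage. Members were chosen on group means of log2 signal by 4 criteria. The anther mean at the uninucleate stage was at least 9, and it exceeded the higher of the ovary and stigma means of that stage by at least 3. At the tricellular stage the anther exceeded the higher of the other organs by less than 1, and the mean in mature pollen was at most 6. Control probe sets and the few paired with a symbol other than a locus number were dropped, and none of the latter met the criteria. The anther, ovary and stigma values at the uninucleate and tricellular stages and the pollen values are therefore given as a description with no test. Tests are given for the tetrad and bicellular stages, which the criteria did not use.

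Triticale is the hybrid cereal of wheat and rye, and all samples came from untreated plants of the cultivar Alta kept in a growth chamber. Anthers, ovaries and stigmas were taken at 4 stages, which follow the pollen: TET for the tetrad left by meiosis, UNM for the uninucleate microspore, BCP for bicellular and TCP for tricellular pollen. Mature pollen grains (MPG) were taken alone. The 13 groups held 3 arrays each, labelled as biological replicates; nothing in the labels says whether they came from separate plants, so the tests measure the spread between these arrays. Kits changed with stage. RNA of the TET organs was extracted with PicoPure and amplified over a repeated cycle, RNA of the UNM and BCP organs went through RNeasy columns, an InviTrap clean-up and 3' IVT Express labelling, and RNA of the TCP organs and of pollen was extracted on CsCl and labelled in a single cycle. The organs of a stage shared kits, while stage and kit cannot be told apart between TET and UNM, nor between BCP and TCP.

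The anther encloses the developing pollen in a wall of several cell layers. The innermost layer, the tapetum, feeds the microspores, supplies enzymes that release them from the tetrad and precursors of the pollen wall, and then breaks down before the pollen matures. Young cereal anthers are also green, with chloroplasts in the outer wall. Because whole anthers were used, fewer cells of a type and less RNA per cell cannot be told apart. The list of tapetum and pollen wall genes had no named gene on this array. Of the 1273 probe sets with a symbol only 19 have one that is no locus number, and a locus number cannot match the list. A tapetal origin of the members could therefore not be checked, and they are called microspore-stage anther probe sets here.

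The 39 arrays ranged from 1.95 to 15.02 in log2 signal, with array medians from 4.79 to 5.10 over the 61204 probe sets tested. Replicates correlated at 0.978 to 0.996 across probe sets, and each array was closest to an array of its own group. The number of arrays limits the precision, a mean under 6 is called dim, and a difference from a dim mean compares signals only, since detection flags were not part of the values used and the transcript may be undetected there. The anther TET arrays differed for the members, with medians of 6.38, 5.93 and 6.80 on replicates 1 to 3. Among these arrays 62.2% of members were lowest on replicate 2 and 62.2% highest on replicate 3. By members at least 2 log2 units from both other replicates, a pair of arrays stood apart most. In anther BCP replicate 3, with 15 members that far below, the median member lay at 8.09, against 9.25 and 9.55 in replicates 1 and 2. There 165 of the 188 members were lowest, against 51.2% of the probe sets tested with an anther BCP mean of at least 8. The median of replicate 3 minus the mean of the others was -0.63 over the members and 0.01 over all probe sets tested. Actin, whose probe set reads 13.98 in anthers at TCP, read 9.45, 8.86 and 10.37 on the 3 anther BCP arrays, highest on replicate 3; its part in the members' values was not tested.

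The other array was ovary TET replicate 3. In it 10 members exceeded both other ovary TET arrays by at least 2 log2 units, the largest by 6.35, whereas no other of the 38 arrays had more than 3 such members and 33 had none. These 10 members had anther TET means from 8.81 to 13.16. They included 9 of the 25 members with an anther TET mean of at least 10. Over the whole array 77 tested probe sets behaved this way, and the highest count on another array was 52, on stigma TCP replicate 3. Of the 77, 67 had an anther TET mean of at least 8, against 15.4% of all probe sets tested. Counts of called members among the 188 are given with and without either array. Values without it are given for some of the named members only.

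**Figure D1:**
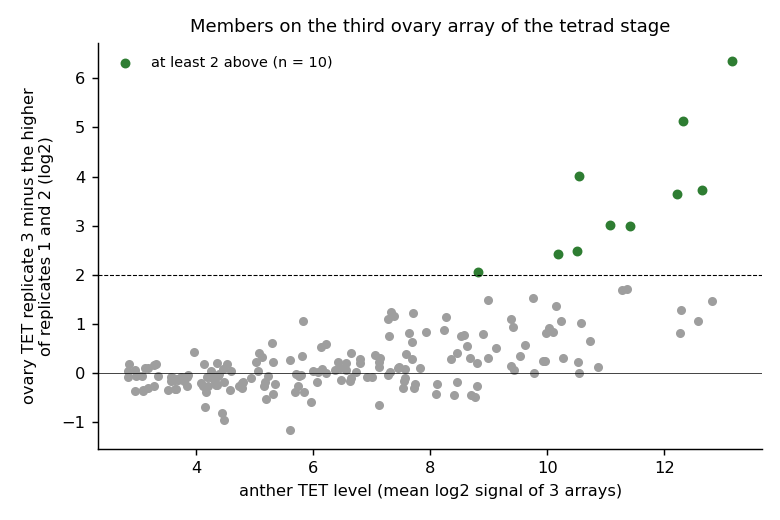
Each of the 188 members is a point, with its anther TET mean (log2 signal, 3 arrays) on the x axis and ovary TET replicate 3 minus the higher of ovary TET replicates 1 and 2 (log2) on the y axis. The 10 members at least 2 above the other replicates, in green, all lie at anther TET means of 8.81 or higher.

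Most members had their highest anther level at UNM and were dim in the anther at TCP. The median member level was 6.46 in TET anthers, 10.65 in UNM anthers, 9.03 in BCP anthers and 4.75 in TCP anthers, and it was 4.45 in mature pollen. Over all probe sets tested the corresponding medians lay between 4.87 and 5.08. The anther level was highest at UNM in 151 members, at BCP in 26, at TET in 9 and at TCP in 2, so a peak at UNM holds for 151 members, and the 2 with their highest level at TCP were Ta.9172.1.S1_at and Ta.9172.1.S1_x_at. From UNM to BCP, where kits were shared, the anther level was at least 1 lower in 126 members, within 1 in 51 and at least 1 higher in 11. The criteria set the UNM levels of the members, so these counts are a description. At TCP the anther level was dim in 140 members and at least 8 in 19, and in 128 it was no more than 1 above that in pollen.

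**Figure D2:**
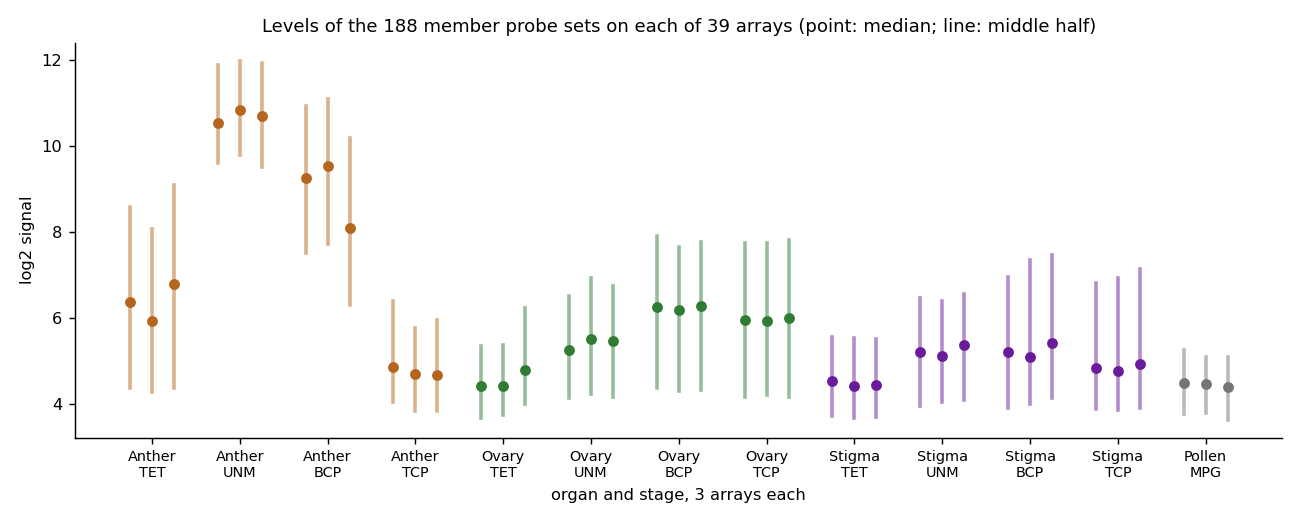
Points are the median log2 signal of the 188 members on each of the 39 arrays and lines span the 25th to 75th percentile of the members; the x axis groups the arrays by organ and stage. Anther UNM arrays sit at 10.55 to 10.83, anther BCP replicate 3 lies at 8.09, below the other BCP anthers, and the TCP anthers (4.69 to 4.87) lie near pollen (4.39 to 4.49).

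At TET the members were of different kinds. A dim anther level was found in 85 members and a level of at least 8 in 57. A dim TET level with a BCP level of at least 8 was found in 52 members, and 41 members had at least 8 at both stages. Only 16 had at least 8 at TET and less at BCP. The criteria themselves cut through a continuum: the nearest anther UNM means inside and outside lay at 9.019 and 8.996, the nearest differences at UNM at 3.028 and 2.997, the nearest TCP differences at 0.999 and 1.005, and the nearest pollen means at 5.991 and 6.015.

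**Figure D3:**
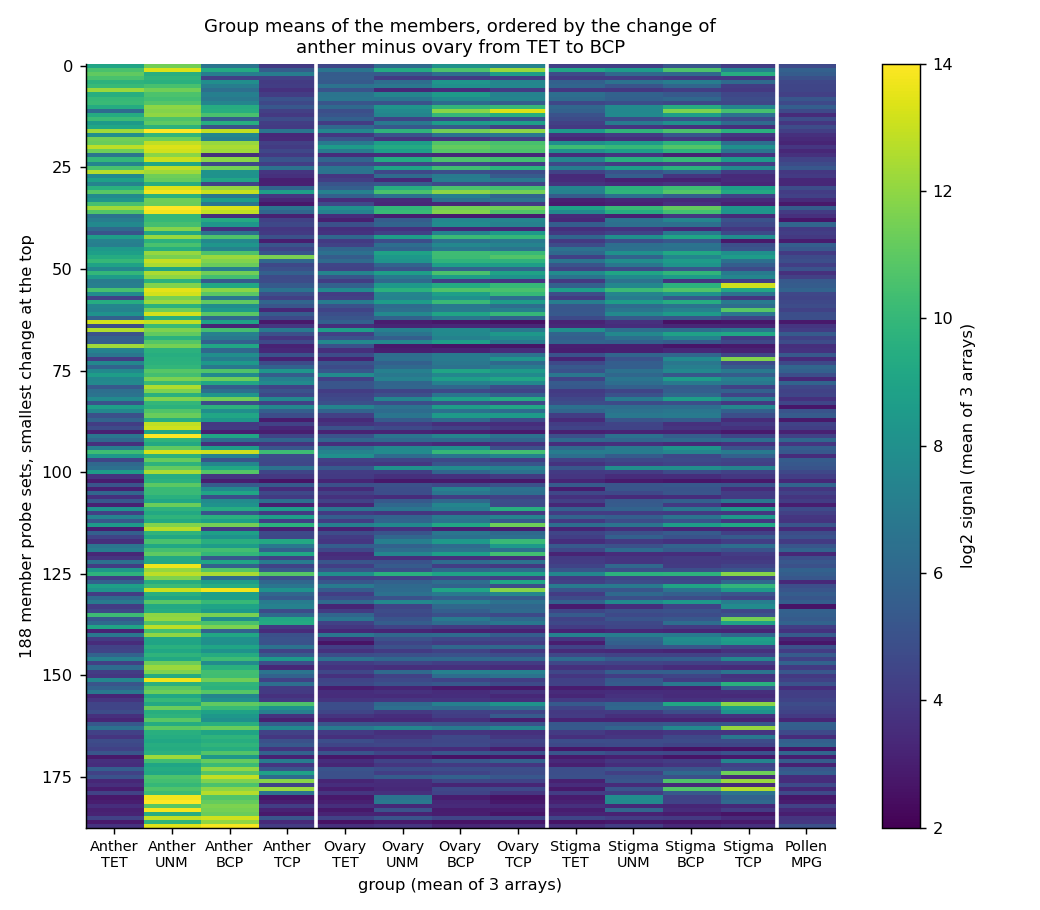
Group means (log2 signal, colour) of the 188 members in the 13 groups, ordered from the smallest change of anther minus ovary between TET and BCP at the top to the largest at the bottom. All members are bright in UNM anthers (9.02 or more), most are dark in TCP anthers and all in pollen (5.99 or less), and the TET column is bright mainly in the upper rows.

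In BCP anthers most members were still above the other organs. Relative to BCP ovary, 127 of the 188 members were higher in the anther and 5 were lower (limma, with a Benjamini-Hochberg adjusted p below 0.05 and the organs at least 1 log2 unit apart), against 6.38% and 7.29% of all probe sets tested. The median member difference was 1.80 and that of all probe sets tested -0.02. Relative to BCP stigma, 148 members were higher and 2 lower, against 7.4% and 7.3% of all, with a median of 2.45. Without anther BCP replicate 3 the counts were 138 and 4 against ovary and 152 and 1 against stigma, and without anther BCP replicate 2 the lower counts were 10 and 6. Set against whichever of ovary and stigma was higher, with no test, the anther mean was at least 1 above in 125 members and at least 1 below in 7, against 5.22% and 10.4% of all probe sets.

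The largest BCP difference was that of TaAffx.87253.3.S1_at, a probe set with no gene symbol. It read 14.11, 14.43 and 12.95 on the BCP anther arrays, 3.24, 3.08 and 3.44 on the ovary arrays and 3.26, 3.49 and 3.44 on the stigma arrays. The organs did not overlap, and every ovary and stigma value was dim. The anther was 10.58 log2 units above ovary (SE 0.34, adjusted p = 1.2e-23) and 10.44 above stigma (adjusted p = 1.5e-23). A companion probe set with the same ID stem, TaAffx.87253.1.S1_at, read 11.97, 12.75 and 11.33 in BCP anthers and stood 9.41 above ovary (SE 0.32) and 9.34 above stigma. Their TCP anther means were 4.06 and 3.40.

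The 5 members below the ovary at BCP were TaAffx.52616.1.S1_at, TaAffx.70216.1.S1_s_at, Ta.24730.2.S1_x_at, Ta.28136.1.S1_x_at and Ta.10535.1.S1_at, the last pair chosen after their values were seen (-1.40 and -1.34). The 2 below the stigma were TaAffx.70216.1.S1_s_at and Ta.9967.2.S1_s_at (-1.59, chosen likewise). TaAffx.52616.1.S1_at read 5.75, 6.49 and 4.78 in BCP anthers and 8.94, 8.78 and 8.42 in BCP ovaries, with every ovary array above every anther array. The anther was 3.04 lower (SE 0.32, adjusted p = 9.7e-10) than ovary, while its difference from stigma was 0.23 (adjusted p = 0.69). Without anther BCP replicate 3 the difference from ovary was -2.6. TaAffx.70216.1.S1_s_at read 9.73, 10.69 and 8.21 in BCP anthers. The ovary arrays read 12.11, 12.04 and 11.44 and the stigma arrays 10.84, 11.67 and 12.44. Its log2 difference was -2.32 from ovary (SE 0.50, adjusted p = 0.0003) and -2.11 from stigma (adjusted p = 0.00089), and without anther replicate 3, its lowest value, they were -1.66 and -1.44 (adjusted p = 0.011 and 0.027). At TCP its means were 13.31 in ovary and 4.29 in anther, and it was the only member whose highest level among the 13 groups was in ovary.

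At TET the anther excess was present in 54.3% of members against ovary. Relative to TET ovary, 102 members were higher in the anther and 2 lower, against 4.32% and 3.98% of all probe sets tested, and the median member difference was 1.33. Relative to TET stigma, 114 were higher and 0 lower, against 5.1% and 3.65%, with a median of 1.52; at an unadjusted p under 0.05, 2 were lower than stigma by limma. Without ovary TET replicate 3 the ovary counts were 103 and 2. They were 95 and 2 without anther TET replicate 3, and 107 and 2 without anther TET replicate 2. The anther mean was at least 1 above the higher of ovary and stigma in 101 members and at least 1 below it in 2, against 3.68% and 5.04% of all probe sets, with no test. The count of 0 lower against stigma became 2 when arrays were scaled on the hybridisation controls or when no minimum difference was set, and 1 without stigma TET replicate 1. Over all probe sets that scaling turned the stigma calls at TET from 3120 higher and 2234 lower to 1805 and 4956, while the members had 98 higher and 2 lower.

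The largest TET differences were those of Ta.15940.1.S1_at and TaAffx.59661.1.S1_at, neither with a gene symbol. Ta.15940.1.S1_at read 13.13, 13.14 and 13.22 in TET anthers. The stigma arrays read 2.73, 3.04 and 3.86 and the ovary arrays 3.08, 3.81 and 10.16. The groups did not overlap, and the lone high ovary value was on replicate 3. Its anther level was 9.95 above stigma (SE 0.84, adjusted p = 9.5e-12) and 7.48 above ovary (adjusted p = 7.1e-09), and the ovary difference was 9.72 without that array. TaAffx.59661.1.S1_at read 12.52, 12.27 and 12.16 in TET anthers and 2.94, 3.47 and 8.60 in ovaries. Its difference from ovary was 7.31 (adjusted p = 2.7e-10), or 9.11 without ovary replicate 3, and from stigma 9.28 (adjusted p = 8.5e-13). Their BCP anther means were 8.95 and 9.08, and both had their lowest BCP value on anther replicate 3.

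The 2 members below ovary at TET were TaAffx.52616.1.S1_at and TaAffx.33265.1.S1_at. The former read 5.53, 5.34 and 5.95 in TET anthers and 7.89, 8.12 and 6.95 in ovaries, a difference of -2.05 (SE 0.32, adjusted p = 4.6e-06), so it was called below ovary at both tested stages. The latter read 4.93, 5.55 and 5.42 in anthers and 6.45, 6.48 and 7.08 in ovaries, a difference of -1.37 (SE 0.23, adjusted p = 1.2e-05). In both members the organs did not overlap.

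The members did not keep the same distance from the ovary at both stages. The change in anther minus ovary from TET to BCP was tested as an interaction within 1 fit. It was called larger at BCP in 74 members and smaller in 65, against 5.64% and 6.82% of all probe sets tested, and ran from -5.95 to 10.43 with a median of 0.15. Against stigma it was larger in 76 and smaller in 44, against 6.62% and 8.07%, with a median of 0.43. Without anther BCP replicate 3 these were 80 and 57 against ovary and 80 and 31 against stigma, and without ovary TET replicate 3 the ovary counts were 73 and 64. The balance of larger and smaller rests on single arrays: without anther BCP replicate 2 it was 68 and 71. Kits differed between TET and BCP for all 3 organs alike, and whether a kit acted differently on the organs was not tested.

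**Figure D4:**
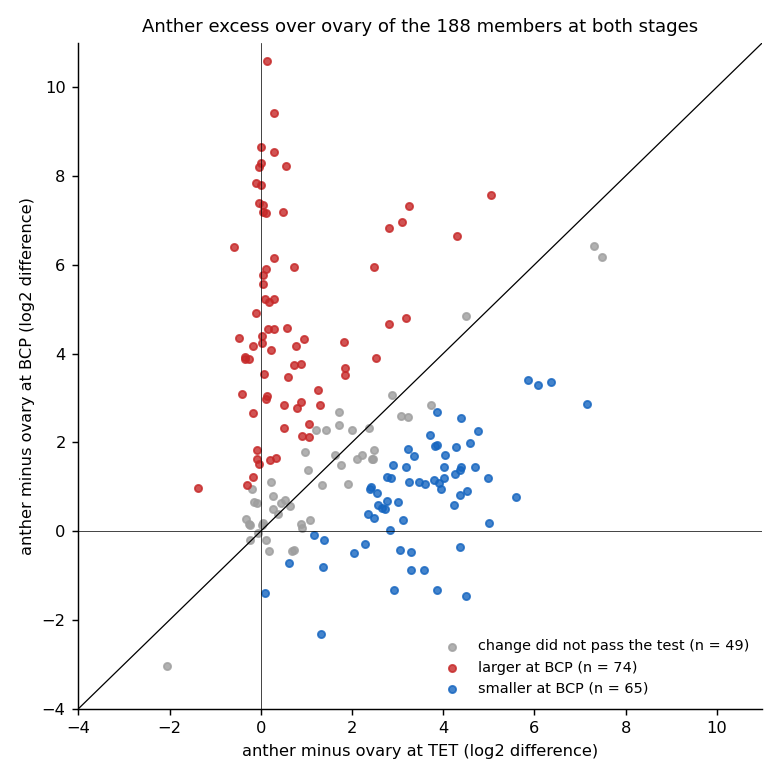
Each point is one of the 188 members, with its anther minus ovary difference (log2) at TET on the x axis and at BCP on the y axis; the diagonal marks equal differences. Red points (74) are larger at BCP and many sit near 0 at TET, blue points (65) are smaller at BCP, and grey points (49) did not pass the test of the change.

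Members were sorted by the test of the change itself, so their levels at TET and BCP describe the sorting, and kits differed between those stages. The 74 members with the larger excess over ovary at BCP had a dim median in TET anthers and similar anther medians at UNM and BCP. Their median anther level was 4.41 at TET, 10.08 at UNM and 9.83 at BCP, while the ovary median stayed between 4.17 and 4.72 over the 4 stages. In 73 of them the anther mean was at least 1 higher at BCP than at TET, and in 25 the ovary mean was, both as values with no test. The 65 members with the smaller excess had a median anther level of 8.98 at TET, 11.38 at UNM and 8.30 at BCP, and an ovary median of 5.21 at TET and 7.78 at BCP. In 47 of them the ovary mean was at least 1 higher at BCP than at TET, while the anther mean was at least 1 lower in 25 and at least 1 higher in 24, again with no test.

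**Figure D5:**
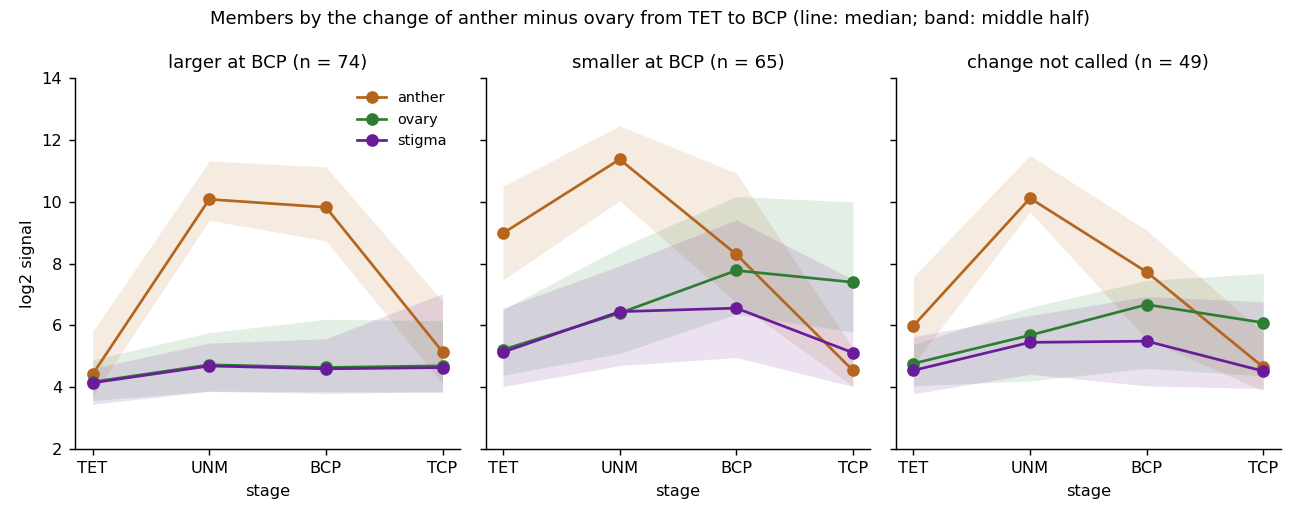
Median log2 signal (points and lines) and 25th to 75th percentile of the members (bands) over the 4 stages in anther, ovary and stigma, for members whose anther minus ovary difference was larger at BCP than at TET (74), smaller (65) or not called changed (49). At TET the anther median is 4.41 in the first panel and 8.98 in the second, where the ovary median reaches 7.78 at BCP.

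TaAffx.87253.3.S1_at had the largest gain. It read 3.66, 3.95 and 3.62 in TET anthers, beside TET means of 3.60 in both ovary and stigma, and its change was 10.43 against ovary (SE 0.48, adjusted p = 1.3e-18) and 10.29 against stigma. TaAffx.87253.1.S1_at gained 9.11 against ovary (adjusted p = 7.9e-18). TaAffx.92553.1.S1_at, unnamed, read 4.35, 4.24 and 4.38 in TET anthers and 13.05, 13.63 and 12.68 in BCP anthers, with stigma means of 4.53 and 3.98. Its anther values at the stages did not overlap, and its change against stigma was 9.35 (SE 0.57, adjusted p = 2.6e-15).

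Among members without a symbol the largest losses against ovary took several forms. Ta.24730.2.S1_x_at read 8.74, 8.59 and 9.62 in TET anthers and 6.69, 6.77 and 6.42 in BCP anthers, while its ovary arrays read 3.70, 4.15 and 5.63 at TET and 8.32, 7.72 and 8.21 at BCP. The anther thus moved from 4.49 above ovary to 1.46 below it (adjusted p = 8.3e-12 and 0.0022), and the change was -5.95 (SE 0.53, adjusted p = 4.8e-11). That change was -6.52 without ovary TET replicate 3 and -5.85 without anther BCP replicate 3. Ta.4366.1.A1_at read 11.17, 11.07 and 10.97 in TET anthers and 7.02, 7.53 and 6.82 in BCP anthers, with a change against ovary of -4.83 (SE 0.56, adjusted p = 2e-08), or -5.87 without ovary TET replicate 3, where the ovary read 7.56 beside 4.55 and 4.34. In stigma its mean was 9.49 at TCP, against 7.11 in the TCP anther.

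Against stigma the largest losses were in another pair of members. Ta.20672.1.S1_at read 10.79, 10.17 and 10.68 in TET anthers and 4.10, 4.52 and 4.18 in BCP anthers, with stigma means of 4.10 and 3.88. Its BCP anther was no longer called above ovary or stigma, and the change against stigma was -6.06 (SE 0.85, adjusted p = 7e-07). TaAffx.114436.1.S1_at read 12.03, 11.93 and 12.67 in TET anthers and 7.01, 8.14 and 3.96 in BCP anthers, where the low value was replicate 3. Its change against stigma was -6.15 (SE 0.95, adjusted p = 3.8e-06), or -4.95 without that array.

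Only 13 members were paired with a symbol, 11 locus numbers of an annotation from 2007 that gave no description, so no role is stated for them. At BCP 9 of the 13 were higher in anther than ovary and 12 higher than stigma, against 6.38% and 7.4% of all probe sets tested. At TET 11 were higher than each, against 4.32% for ovary and 5.1% for stigma. The change from TET to BCP against ovary was larger in 4 and smaller in 7, against 5.64% and 6.82%, and against stigma larger in 4 and smaller in 4, against 6.62% and 8.07%.

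LOC543442 (Ta.4195.1.S1_at) read 10.91, 11.14 and 10.53 in BCP anthers and 3.60, 3.65 and 3.33 in BCP ovaries, and its ovary and stigma means were dim at every stage. The BCP difference from ovary was 7.33 (SE 0.37, adjusted p = 4.6e-18). At TET its anther arrays read 5.92, 5.81 and 8.65, highest on replicate 3, and the TET difference was 3.24 (adjusted p = 1e-08). LOC543318 (Ta.3.1.S1_at) read 13.80, 14.32 and 13.06 in BCP anthers. The ovary arrays read 9.37, 9.36 and 8.47 and the stigma arrays 6.17, 7.12 and 6.47. It was 4.66 above ovary (adjusted p = 3.2e-13) and 7.14 above stigma (adjusted p = 2.4e-18), and its ovary mean was 11.84 at TCP, above the TCP anther mean of 8.09. At TET it was 2.81 above ovary (adjusted p = 8.2e-08) and 3.12 above stigma (adjusted p = 8.7e-09). LOC543329 (Ta.137.1.S1_at) read 9.48, 9.55 and 9.07 in BCP anthers and 4.78, 4.85 and 5.45 in ovaries, a difference of 4.34 (adjusted p = 2.5e-17). Its TET difference from ovary was 0.96, under the minimum of 1, and it became a call without anther TET replicate 1 (1.03) or ovary TET replicate 3 (1.10).

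LOC100125701 (Ta.8629.1.A1_at) was a late member shared with the stigma. Its anther means were 4.48 at TET, 9.22 at UNM, 11.09 at BCP and 10.64 at TCP, and its stigma means 5.38, 5.87, 9.13 and 11.88. The TCP anther mean lay above that at UNM, so this member met the TCP criterion through the stigma. At BCP the anther was 3.88 above ovary (adjusted p = 2.9e-15) and 1.96 above stigma (adjusted p = 4.3e-08). At TET the differences were -0.34 (adjusted p = 0.41) and -0.90, the latter under the minimum of 1. The stigma difference at TET became a call without stigma TET replicate 1 (-1.06) or on the hybridisation scaling (-1.32).

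LOC100037556 (Ta.3361.2.S1_x_at) was above ovary at TET and was not called different from either organ at BCP. It read 10.77, 10.05 and 10.80 in TET anthers and 7.25, 5.55 and 7.24 in TET ovaries, a difference of 3.86 (SE 0.54, adjusted p = 5.4e-07). TET stigma read 8.89, 9.44 and 9.05, which was 2.44 above ovary (adjusted p = 0.0031), and this call was lost without ovary TET replicate 2 (1.88). The anther was 1.42 above stigma at TET (adjusted p = 0.053, or 0.038 with the replicate block). Its BCP values were 9.63, 10.92 and 7.44 for anther, 10.92, 10.94 and 10.12 for ovary, and 9.85, 11.08 and 11.05 for stigma. The BCP ranges overlap. The BCP differences were -1.33 from ovary (adjusted p = 0.059) and -1.33 from stigma (adjusted p = 0.057). With replicate number as a block the adjusted p was 0.042 from ovary and 0.041 from stigma, which are calls. Without anther replicate 3 the differences were -0.38 from ovary (adjusted p = 0.68) and -0.39 from stigma (adjusted p = 0.66), and without anther replicate 2 they were -2.12 and -2.13 (adjusted p = 0.0015 and 0.0014). The change from TET to BCP was -5.19 against ovary (adjusted p = 1.7e-06) and -2.75 against stigma (adjusted p = 0.0058). Without anther BCP replicate 3 these were -4.24 (adjusted p = 4.1e-06) and -1.80 (adjusted p = 0.04).

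Like LOC543318, LOC543442 and LOC100037556, the remaining symbol-paired members were above ovary in TET anthers. LOC543283 (Ta.23158.1.S1_at) read 8.81, 8.21 and 9.70 there and 4.28, 4.20 and 5.07 in ovary, a difference of 4.40 (adjusted p = 7.3e-15) that was 2.55 at BCP (adjusted p = 1.4e-09). LOC543448 (Ta.27793.2.S1_x_at) was bright in all 3 organs at BCP, with means of 12.98, 11.92 and 10.81 in anther, ovary and stigma. Its excess over ovary was 3.60 at TET (adjusted p = 6.1e-11) and 1.06 at BCP (adjusted p = 0.011), the BCP call being lost without anther replicate 1 (0.98) or ovary replicate 2 (0.97). LOC542880 (Ta.11386.2.S1_a_at) went from 3.96 above ovary at TET (adjusted p = 1.2e-13) to 0.95 at BCP, under the minimum of 1, and without anther BCP replicate 3 the BCP value was 1.15, a call. LOC543256 (Ta.3795.1.S1_x_at) went from 3.19 (adjusted p = 8.7e-11) to 1.44 (adjusted p = 0.00014).

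A pair of locus numbers was read by more than 1 member, which share transcript sequence and are not independent. The probe sets of LOC732707, Ta.27660.1.S1_at and Ta.27660.1.S1_x_at, were 3.23 and 3.07 above ovary at TET and 2.58 and 2.60 at BCP, and neither change was called. Those of LOC543355, Ta.581.1.S1_at and Ta.581.2.S1_a_at, were 2.73 and 2.76 above ovary at TET (adjusted p = 1.6e-07 and 1.2e-08) and 0.50 and 0.69 at BCP (adjusted p = 0.35 and 0.11). Without anther BCP replicate 3 the latter value was 1.03, a call.

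Within the pistil, stigma minus ovary was called lower in 55 members and higher in 10 at BCP, against 3.85% and 3.05% of all probe sets tested, with a member median of -0.35. At TET 6 were higher and 8 lower, against 0.703% and 1.12%, and the split turned to 13 higher and 7 lower when arrays were scaled on the hybridisation controls, a scaling that moved the median of all probe sets from 0.00 to 0.36. It was 9 and 7 without ovary TET replicate 3, 5 and 14 without replicate 1 and 4 and 13 without replicate 2, so the TET split rests on single ovary arrays.

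Several members were shared by the anther and 1 pistil organ at BCP. Ta.9172.1.S1_x_at and Ta.9172.1.S1_at, of 1 ID stem, were in stigma: the latter read 10.40, 10.70 and 11.12 in BCP stigma, 4.98, 3.99 and 4.79 in ovary and 12.03, 11.97 and 11.95 in anther. Stigma minus ovary was 6.20 and 6.15 (SE 0.36 and 0.40, adjusted p = 1.7e-15 and 3.6e-14), and at TET all 3 organs were dim. Both remained bright in TCP, with anther means of 11.83 and 12.17 and stigma means of 12.17 and 12.56, so they met the TCP criterion through the stigma and not through a fall in the anther.

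Ta.5650.1.S1_a_at and Ta.5650.2.S1_x_at were in ovary instead. The former read 8.41, 9.02 and 8.78 in BCP ovary, 3.69, 3.44 and 3.63 in stigma and 10.07, 10.34 and 9.47 in anther, with no overlap between the organs. Stigma minus ovary was -5.15 and -4.67 (SE 0.32 and 0.30, adjusted p = 1e-14 and 2.8e-14), and the TCP ovary means reached 10.38 and 10.14.

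At TET the pistil differences were smaller. Ta.2402.1.S1_a_at read 7.72, 7.19 and 7.29 in stigma and 5.60, 5.07 and 6.18 in ovary, a difference of 1.79 (SE 0.33, adjusted p = 0.00033). Ta.3581.2.S1_x_at read 9.98, 10.56 and 10.32 in stigma and 7.81, 8.22 and 9.68 in ovary, a difference of 1.72 (adjusted p = 0.00092). Without ovary TET replicate 3 this difference was 2.27. Ta.15927.1.S1_at was lower in stigma, at 4.09, 3.47 and 4.37 against 5.76, 5.97 and 6.47 in ovary, a difference of -2.09 (adjusted p = 3.3e-06), and TaAffx.33265.1.S1_at was lower by -2.28 (adjusted p = 4.2e-09). None of these 4 pairs of groups overlapped.

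The ovary median of the members was 4.64 at TET, 5.40 at UNM, 6.24 at BCP and 5.99 at TCP, and that of stigma 4.45, 5.16, 5.31 and 4.77. From UNM to BCP, within shared kits, the ovary mean was at least 1 higher in 72 members and the stigma mean in 38, as values with no test. The UNM criterion kept both means at least 3 below the anther, so these rises are partly set by the choice of members. The shares over all probe sets are not given here. Both organs were dim at all 4 stages in 64 members, or 34.0%. The ovary was the highest of the 13 groups in 1 member and the stigma in 7. At TCP the anther lay at least 1 below the higher of ovary and stigma in 94 members, a value that belongs to the criterion.

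A pair of photosynthesis genes, which are no members and were each read on a single probe set, were also highest in the anther at UNM. petC, which encodes the Rieske protein of the chloroplast electron transport chain, had anther means of 9.98, 12.65, 11.17 and 7.69 from TET to TCP, ovary means of 7.75, 9.87, 10.79 and 10.81, stigma means of 6.80, 8.05, 9.03 and 7.86, and 6.18 in pollen. The FBP probe set, for the gene of fructose bisphosphatase, had anther means of 6.77, 9.94, 8.75 and 7.35. Its ovary means were 5.19, 5.84, 7.21 and 7.06, and its stigma means 4.93, 5.87, 7.17 and 8.87. Unlike the median member, FBP was higher in the anther at TCP than at TET, and its TCP stigma mean lay above its TCP anther mean. On the 3 anther BCP arrays petC read 11.57, 11.20 and 10.73, lowest on replicate 3, as the members did. These 2 were the named genes of the photosynthetic list. Probe sets with such symbols were dropped by rule, so neither gene could be a member. The FBP pollen mean of 6.14 also lay above the limit of 6. The part of these genes in the members' values was not tested.

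The TCP and pollen criteria separated the members from 276 probe sets that met both anther UNM criteria and failed either of the others. Those 276 had an anther median of 10.96 at UNM and 10.33 at BCP, and 8.22 at TCP, where the criteria fixed the difference. Their anther level peaked at UNM in 162 (58.7%) and at BCP in 73 (26.4%), against 80.3% and 13.8% of the members. At BCP 245 of the 276 (88.8%) were called higher in anther than ovary, against 67.6% of the members, and the medians were 3.40 and 1.80. At TET the shares were 59.4% and 54.3%. The change against ovary was larger in 138 (50%) and smaller in 49 (17.8%) of the 276, and larger in 39.4% and smaller in 34.6% of the members. These shares are a description, since the sets were formed from the same arrays and a probe set near the limit of a criterion could fall in either.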

How the data were processed

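RNA abundance was measured on 39 Affymetrix Wheat Genome Arrays. Per the submitters' processing notes the authors used RMA, and the deposited numbers are log2 signals; its version, and whether 1 run covered every array, is not given in the sources used here. Quantile steps of RMA force arrays to a common distribution, which can move dim probe sets. The array was designed for wheat, so rye transcripts may hybridise less well. Scale and direction follow from log2 signals of single samples; values were not centred by gene.

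Of 61290 probe sets, 86 controls were left out and 61204 tested, dim ones included. The model was limma's (3.58.1, R 4.3.3): a mean for each of 13 groups over 39 arrays, contrasts, and eBayes (26 residual and 7.5 prior degrees of freedom), with Benjamini-Hochberg adjustment over the 61204 probe sets of each of 8 comparisons. A call needs an adjusted p below 0.05 and organs at least 1 log2 unit apart. Members were found in Python 3.11.15 with pandas 2.3.3.

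The members and the lists were chosen with earlier results of these data known. The text names every member with a symbol and, per comparison and direction, at most 2 called members without a symbol, those of largest difference whose organs did not overlap on any array (no such condition for the changes). Outside this rule, Ta.28136.1.S1_x_at, Ta.10535.1.S1_at and Ta.9967.2.S1_s_at were named after their values were seen. Of all probe sets, 1273 have 1 of 771 symbols and 59931 of those tested none; 175 members have none. The lists (tapetum and pollen wall, late pollen, photosynthetic, meiosis, pistil, cell division) had 0, 1, 2, 0, 1 and 1 named genes on the array, and 0 among the members. A locus number cannot match a list, and only 19 probe sets have another symbol. Controls and probe sets with such other symbols were dropped by rule, so the count of 0 among the members was set in advance.

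Replicate numbers were checked for pairing by the correlation of deviations from group means. Every correlation was over 0.1 only for anther and stigma at BCP (0.261, 0.104 and 0.129), from the data and not from the labels. Alternatives were scaling on the brighter probe sets or on the hybridisation controls, a filter on dim probe sets, a robust variance trend, a replicate block, only the groups compared, a threshold of 0.01, no minimum difference, and each array left out. No sequences were used here.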

Additional observations from a re-analysis of the deposited data

Results flagged for a closer look

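The results here were picked out because the same contrast, anther minus another organ, differed between TET and BCP by the interaction test at an adjusted p under 0.05 and a log2 change of at least 1. The kits differed between these stages for all organs alike, and what they contribute was not tested.

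Against ovary the anther excess was larger at BCP in 74 members and smaller in 65, against 5.64% and 6.82% of all probe sets tested. Among unnamed members the changes were 10.43 for TaAffx.87253.3.S1_at, 9.11 for TaAffx.87253.1.S1_at, -5.95 for Ta.24730.2.S1_x_at and -4.83 for Ta.4366.1.A1_at. Among members with a locus number, the excess over ovary grew by 4.22 for LOC100125701, 4.09 for LOC543442, 3.38 for LOC543329 and 1.85 for LOC543318. It changed by -5.19 for LOC100037556, -3.01 for LOC542880, -2.54 for LOC543448, -1.84 for LOC543283 and -1.75 for LOC543256, and by -2.23 and -2.07 for the 2 probe sets of LOC543355 (Ta.581.1.S1_at and Ta.581.2.S1_a_at).

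Against stigma it was larger at BCP in 76 members and smaller in 44, against 6.62% and 8.07% of all probe sets tested. The changes were 10.29 for TaAffx.87253.3.S1_at, 9.35 for TaAffx.92553.1.S1_at, -6.15 for TaAffx.114436.1.S1_at and -6.06 for Ta.20672.1.S1_at. Against stigma the excess grew by 4.02 for LOC543318, 3.99 for LOC543442, 3.72 for LOC543329 and 2.86 for LOC100125701. It changed by -2.75 for LOC100037556 (-1.80 without anther BCP replicate 3, adjusted p = 0.04), -1.90 for LOC542880, -1.43 for LOC543448 and -1.18 for LOC543256. The call of LOC543448 against stigma was lost without anther TET replicate 3 (adjusted p = 0.11), anther BCP replicate 3 (adjusted p = 0.05) or stigma BCP replicate 3 (adjusted p = 0.081). That of LOC543256 was lost without anther TET replicate 3, stigma TET replicate 2, anther BCP replicate 3 or stigma BCP replicate 3 (adjusted p = 0.15, 0.14, 0.093 and 0.15), on scaling to the brighter probe sets (0.052) or the hybridisation controls (0.14), and with only the groups compared (0.095). Neither call held at a threshold of 0.01. LOC543283 was called smaller against stigma (-1.04) without anther TET replicate 2.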

How the results depend on the processing

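The number of arrays, 3 a group, limits the precision, and signal near background limits differences against dim means. Members with calls numbered 126 to 142 for anther against ovary at BCP over the fits leaving out 1 array each (132 with all arrays), 145 to 153 for anther against stigma at BCP (150), 97 to 109 and 108 to 114 for the same at TET (104 and 114), 56 to 65 and 12 to 19 for stigma against ovary at BCP and TET (65 and 14), and 131 to 139 and 109 to 120 for the changes against ovary and stigma (139 and 120). The majority turned in 3 cases and became a tie in 1. Stigma against ovary at TET had 20 called members (13 higher, 7 lower) on the hybridisation scaling, 16 (9 and 7) without ovary replicate 3 and 12 (6 each way, median -0.05) without stigma replicate 3, and the change against ovary had 139 (68 larger, 71 smaller) without anther BCP replicate 2. The cause was not tested. Under the other alternatives the 8 counts stayed within 1.5 times of these and kept their majority. The replicate block gave 133, 151, 104, 115, 66, 15, 138 and 121 called members in the order above. Labels give no shared litter, batch or day for a replicate number, and besides LOC100037556 (anther against each organ at BCP and against stigma at TET) the block changed no call of a named member. The hybridisation scaling moved the median of all probe sets for anther minus stigma from -0.05 to -0.30 at BCP and from -0.05 to -0.47 at TET, and the members' medians were 2.20 and 1.10 there. On that scaling the calls over all probe sets, higher and lower, went from 4527 and 4465 to 3516 and 6362 for anther against stigma at BCP, from 1865 and 2354 to 2366 and 1919 for stigma against ovary at BCP, from 430 and 685 to 1029 and 398 for the same at TET, and from 4053 and 4939 to 4996 and 3917 for the change against stigma. Over the named members, 2012 of 2066 alternative values stayed on the same side of the threshold, 27 lost a call, 27 gained one and 0 changed direction. Members without a symbol were named for their largest called differences and counted only in those comparisons, which favours an unchanged call. The alternatives also reuse the same arrays, so these counts do not describe the other members.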

Other observations

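The 188 members carry 157 ID stems, the part of a probe set's name that groups probe sets of one sequence cluster, and 27 stems hold several members, 58 in all and at most 3 each. Within those stems the difference of anther from the higher of ovary and stigma ran over a median range of 0.24 at BCP and 0.29 at TET, and the widest ranges were 2.81 and 3.55, both values of the Ta.1725 stem, which was singled out after its values were seen. A further 350 probe sets shared a stem with a member without being one, and 248 of them were less than 1 above the other organs in UNM anthers.

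Probe sets whose name marks probes shared between sequences were more frequent among the members than on the array. The _x_at type made up 21.8% of the members and 11.1% of the probe sets tested, the _a_at type 8.5% and 5.4%, and the _s_at type 6.9% and 4.3%. Signal of such a probe set can come from more than 1 transcript of a gene, of a family or of the wheat and rye genomes, and its source was not tested. Members were chosen as bright, and the shares among bright probe sets are not given here.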
